A study of Homo sapiens with 12 samples.

Results

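The interaction between a copper chelator and low oxygen was measured across genes by RNA sequencing in a human endothelial cell line. It is the response to low oxygen with the chelator minus the response without it, on the log2 scale: (TEPA+hypoxia − TEPA) − (hypoxia − control). All 12 of the 12 libraries of the series entered the comparison, as 4 groups of 3 taken from the sample labels. The same quantity was then fitted in 10 libraries, with hypoxia 1 kept and hypoxia 2 and 3 left out.

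The cells were EA.hy926, an established line made by fusing human umbilical vein endothelial cells with a lung carcinoma line, and every group was this 1 line. TEPA, a polyamine that binds copper, was present at 50 µM for 16 h. The last 8 h followed at normal oxygen (the TEPA group) or in 1% oxygen (TEPA+hypoxia). The groups without TEPA were kept at normal oxygen (control) or in 1% oxygen for 8 h (hypoxia). The labels do not say whether the 3 libraries of a group came from separate cultures, so p-values here reflect the spread among these libraries, which may be technical.

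At normal oxygen, prolyl hydroxylases mark the alpha subunits of hypoxia-inducible factors (HIF) for degradation. In low oxygen the subunits persist, pair with ARNT, recruit coactivators such as p300 and CBP, and raise genes of glucose use, blood vessel growth and cell survival. Copper is a cofactor of cytochrome oxidase, superoxide dismutase and lysyl oxidase, and is carried by dedicated chaperones and stored on metallothioneins. Copper has been described as needed for HIF-1 to act at some of its targets, which is the question a chelator by oxygen design addresses.

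Total counts ran from 13406858 to 24778944 per library. Hypoxia 2 and 3 stood apart from the rest. Levels are in CPM, counts scaled to the library total times its TMM factor. This factor, which corrects the total for composition, was 0.772 in hypoxia 2 and 0.838 in hypoxia 3, against 1.03 to 1.08 in the other 10 libraries. Ribosomal protein genes took 10.0% and 8.63% of the counts in hypoxia 2 and 3, and 3.17% to 5.08% elsewhere. The hypoxia libraries differed from each other by a median of 0.763 on the log2 scale per gene, against 0.279 in control, 0.219 in TEPA and 0.290 in TEPA+hypoxia. Of 15 endothelial markers, 14 were detected in every library, and CLDN5 was listed at 0. The epithelial keratins KRT7, KRT8 and KRT18 were abundant, while CDH1 and ESRP1 were at 0. Summed epithelial markers were 15699 to 18346 CPM in hypoxia 2 and 3 and 5595 to 7872 CPM elsewhere. Summed endothelial markers were 7358 to 7987 CPM and 4448 to 5076 CPM in the same order. Single endothelial markers differed: of 14 tested, 7 had a positive and 7 a negative interaction, such as KDR (1.22) and ENG (-1.47). Summed fibroblast and mural markers were lower in hypoxia 2 and 3, at 52.2 to 58.5 CPM against 84.5 to 109 CPM. PTPRC, the leukocyte marker, was at 0, and summed leukocyte markers lay between 4.04 and 6.70 CPM. The part of these library differences in the results that follow was not tested. In bulk RNA, fewer cells of a kind and less RNA per cell cannot be told apart.

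In the 12 libraries, 2498 of 14447 genes were called higher (17.3%), meaning that their change in low oxygen was more positive with TEPA. Another 3113 genes were called lower (21.5%). The threshold was 0.05 on the p from the edgeR quasi-likelihood test, adjusted by Benjamini-Hochberg. The smallest adjusted p was 0.0236, so many genes share nearly the same value. In the 10 libraries with hypoxia 1 alone, the same edgeR test called 0 genes in either direction (0% of 15195). At an unadjusted p under 0.05 it found 2285 higher (15.0%) and 1832 lower (12.1%), and DESeq2 called 747 higher and 621 lower. For this reason many results below are given for both sets of libraries. Where no set is named, a value is from all 12 libraries. With hypoxia 1 alone, that library is assumed to vary like the other groups. The median interaction of all genes was 0.04 in both.

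Among 33 measured HIF target genes, 5 were called higher and 6 lower in the 12 libraries, shares near those of all genes (17.3% and 21.5%). Their median interaction was 0.09. With hypoxia 1 alone, 3 were higher and 4 lower at an unadjusted p under 0.05 (all genes: 15.0% and 12.1%), with a median of 0.03. The list had 42 members, of which 9 were not tested; CA9, EGLN3 and EPO were listed at 3, 0 and 0 counts over all libraries. The members did not move as a block. Lower members were ANGPTL4, BNIP3, ADM, ANKRD37, FAM162A and CXCR4, and higher members were PFKFB3, HK2, KDM3A, LOX and TFRC. The hypoxia and TEPA+hypoxia libraries of CXCR4 overlapped. PFKFB3 had an interaction of 3.32 ± 1.07, and 1.98 in the fit with hypoxia 1 alone. From log2 CPM, hypoxia 2 and hypoxia 3 each gave PFKFB3 the identical value of 3.27. Libraries at 0 counts would give such a value, so its size is uncertain. Correction for transcript GC content and length, described near the end, ended the calls of ADM, HK2 (0.44, adjusted p = 0.0751), LOX (0.08, adjusted p = 0.602) and TFRC (0.18, adjusted p = 0.164). Other members gained a call, and 6 were then called higher and 8 lower (all genes: 1460 and 2715 of 12624).

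BNIP3, a protein of the outer mitochondrial membrane that promotes mitophagy, had the HIF target interaction that differed least between the hypoxia libraries. Its gene lies at chr10:131966455-131982013 on the minus strand (GRCh38, GENCODE 29). Its level was 50.6, 49.8 and 52.5 CPM in control and 89.7, 91.0 and 90.8 CPM in hypoxia. With TEPA it was 53.3, 48.6 and 48.2 CPM at normal oxygen and 64.1, 66.8 and 62.3 CPM in TEPA+hypoxia. The control and TEPA libraries overlapped, while all 3 hypoxia libraries lay above all 3 TEPA+hypoxia libraries. The fold of BNIP3 in low oxygen was 1.77 without TEPA and 1.29 with it, an interaction of -0.46 ± 0.12 (SE; edgeR quasi-likelihood adjusted p = 0.0236). In the 10 libraries it was -0.44 ± 0.13, with an unadjusted p of 0.00392 and an adjusted p of 0.0758. The 3 hypoxia libraries differed by 0.02 on the log2 scale. Correction for transcript GC content and length gave -0.44 (adjusted p = 0.0257). Scaling by library totals alone ended the call (-0.18, adjusted p = 0.383); the median of all genes was then 0.32, and BNIP3 lay -0.50 from it.

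ANGPTL4, a secreted inhibitor of lipoprotein lipase, had the largest increase in low oxygen among the measured HIF targets. It was at 124, 110.4 and 123 CPM in control and 124, 119 and 106 CPM in TEPA. In low oxygen it reached 520.3, 1122 and 1074 CPM without TEPA and 347, 359 and 317 CPM with TEPA. All hypoxia libraries were above all TEPA+hypoxia libraries, but hypoxia 1 lay nearer to them than to hypoxia 2 and 3. The fold was 7.60 without TEPA and 2.93 with it (interaction -1.37 ± 0.32, edgeR adjusted p = 0.0236). In the 10 libraries the folds were 4.36 and 2.96 (interaction -0.56 ± 0.14, unadjusted p = 0.00117, adjusted p = 0.0654). After GC and length correction the 12-library interaction was -0.49 (adjusted p = 0.0305). With hypoxia 1 alone the corrected value was -0.24.

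ADM encodes adrenomedullin, a peptide that widens blood vessels. Its level was 51.0, 41.3 and 56.7 CPM in control and 95.0, 111 and 119 CPM in hypoxia. With TEPA it was 48.3, 50.2 and 44.9 CPM at normal oxygen and 64.5, 69.2 and 60.5 CPM in 1% oxygen. The hypoxia and TEPA+hypoxia libraries did not overlap. The interaction was -0.69 ± 0.18 (edgeR adjusted p = 0.0236) in 12 libraries and -0.48 ± 0.18 (unadjusted p = 0.0189, adjusted p = 0.117) with hypoxia 1 alone. GC and length correction ended the 12-library call (-0.16, adjusted p = 0.361), as did scaling by library totals alone (-0.39, adjusted p = 0.105).

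For 3 other HIF targets with higher levels in low oxygen, the interval of the interaction spanned 0. DDIT4, an inhibitor of mTORC1 signalling, was at 18.3, 20.6 and 27.7 CPM in hypoxia and 21.5, 23.4 and 20.4 CPM in TEPA+hypoxia, and these overlapped. Its folds were 2.94 without TEPA and 2.72 with it (interaction -0.11, 95% interval -0.73 to 0.50, edgeR adjusted p = 0.758). After GC and length correction the DDIT4 interaction was 0.74 (edgeR adjusted p = 0.0407). With hypoxia 1 alone and no correction it was 0.18, so its sign rests on the processing and on the hypoxia libraries used. ENO2, a glycolytic enolase, had folds of 2.05 and 1.85 (interaction -0.15, 95% interval -0.58 to 0.28), and GC and length correction turned its sign (0.25, adjusted p = 0.189). SLC2A1, the glucose transporter GLUT1, had folds of 1.71 and 1.60 (interaction -0.10, 95% interval -0.46 to 0.26), and the same correction turned its sign as well (0.29, adjusted p = 0.314). With hypoxia 1 alone and no correction, the interaction was 0.03 for ENO2 and -0.27 for SLC2A1. For DDIT4, ENO2 and SLC2A1 a smaller response with TEPA was not detectable, and the intervals do not show equal responses.

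For VEGFA, the endothelial growth factor, the direction was positive. It was at 14.4, 7.64 and 11.0 CPM in hypoxia and 16.5, 20.3 and 19.5 CPM in TEPA+hypoxia, with no overlap. Its folds over the matching normal oxygen group were 1.03 without TEPA and 1.58 with it (interaction 0.63, 95% interval 0.00 to 1.25, edgeR adjusted p = 0.0938). With hypoxia 1 alone the VEGFA folds were 1.34 and 1.60 and the interaction 0.25 (adjusted p = 0.462). PDK1, which restrains pyruvate entry into mitochondria, was at 8.73, 6.98 and 5.52 CPM and 8.80, 9.57 and 11.1 CPM in the same groups. Its interaction was 0.63 (adjusted p = 0.108).

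**Figure D1:**
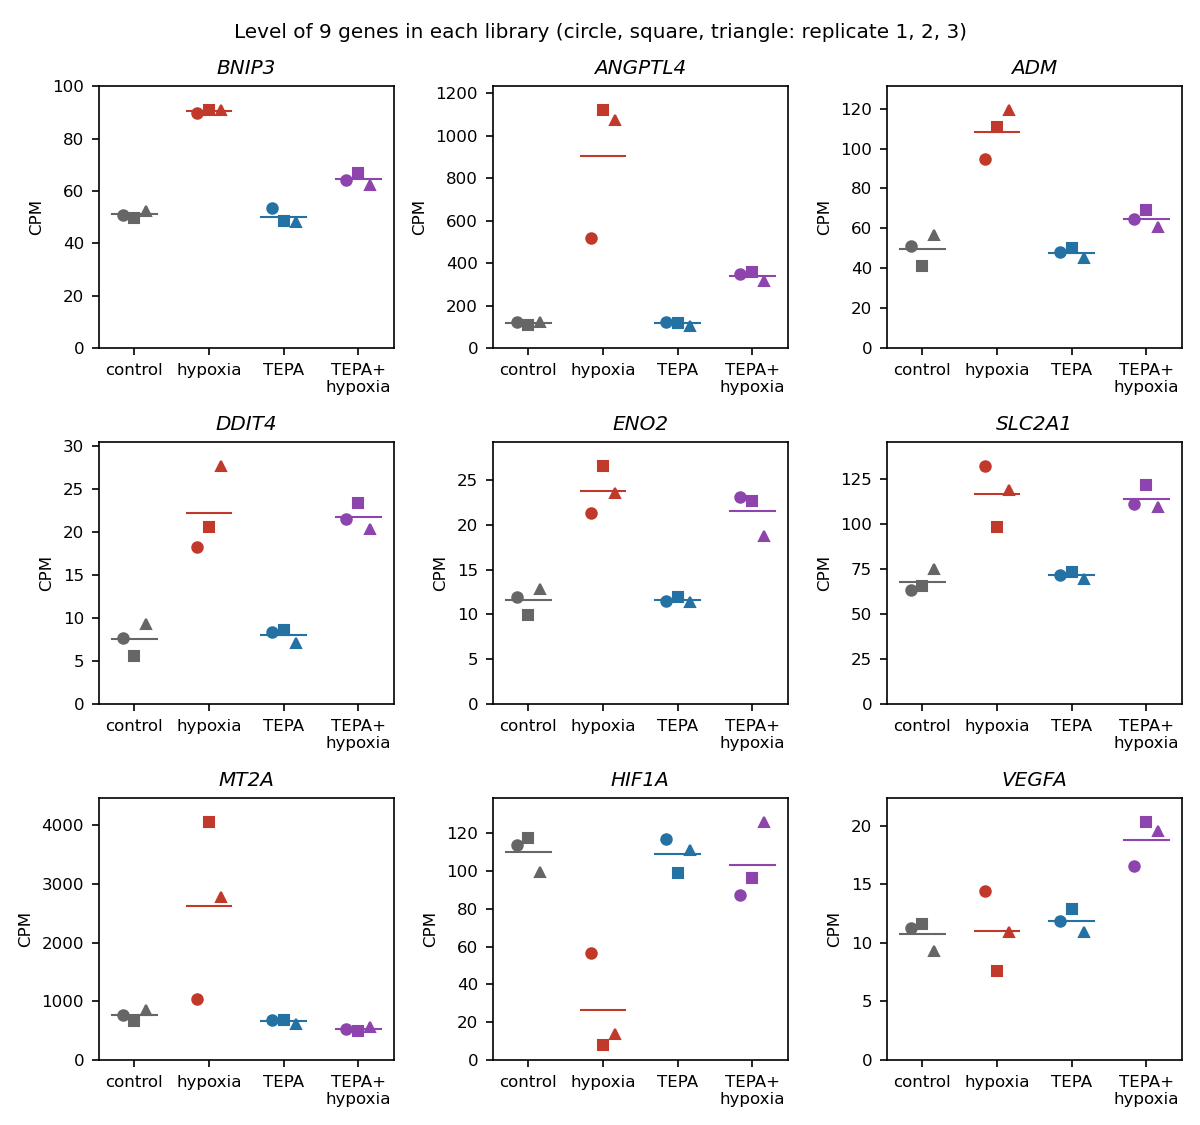
Level of 9 genes in each library, in CPM on linear axes from 0, with circles, squares and triangles for replicates 1, 2 and 3 and a line for the group mean. BNIP3 has 3 hypoxia points at 89.7 to 91.0 CPM above TEPA+hypoxia points at 62.3 to 66.8 CPM, while for ANGPTL4, MT2A and HIF1A hypoxia 1 lies apart from hypoxia 2 and 3.

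Among HIF targets, 7 of 33 had all 3 hypoxia libraries within 0.2 on the log2 scale. This subset was picked after its values were seen and is only described. BNIP3 had the lowest interaction, followed by HILPDA (-0.43, adjusted p = 0.0696), which coats lipid droplets, and PFKFB4 (-0.24, adjusted p = 0.381), a regulator of glycolysis. TMEM45A was at -0.23, P4HA2, a collagen prolyl hydroxylase, at -0.13, IGFBP3 at -0.02 and STC2 at 0.01. BNIP3 was called lower, and the other 6 were not called. After GC and length correction HILPDA (-0.45, adjusted p = 0.0494), TMEM45A (-0.69, adjusted p = 0.0257) and STC2 (0.40, adjusted p = 0.0302) were called, and PFKFB4 (0.21), P4HA2 (0.03) and IGFBP3 (0.29) had the other sign without a call.

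**Figure D2:**
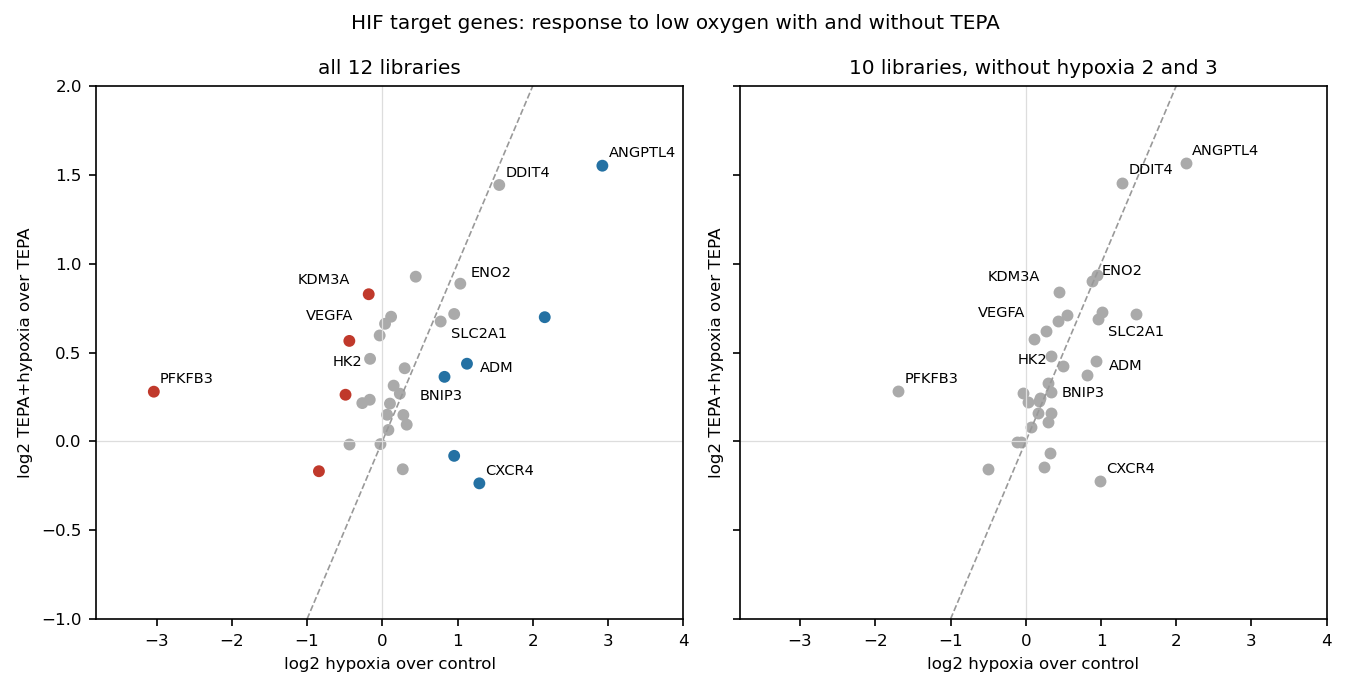
Response of 33 HIF target genes to low oxygen without TEPA (horizontal axis, log2) and with TEPA (vertical axis, log2, drawn at another scale), in 12 libraries and in 10 libraries; the dashed line marks equal responses. Blue genes were called lower and red genes higher in 12 libraries, where ANGPTL4 lies at 2.93 and 1.55; with hypoxia 1 alone ANGPTL4 lies at 2.13 and 1.57, and no gene was called.

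The RefSeq promoters of 3 called HIF targets and 2 that were not called are shown so that their HIF core letters can be compared beside these values. Each is 300 bases around the start that RefSeq gives the gene, 5′ to 3′ on the gene's own strand (GRCh38.p14), with the letters ACGTG or GCGTG on either strand in capitals. BNIP3 is chr10:131981874-131982173 (minus strand), ANGPTL4 chr19:8363905-8364204, ADM chr11:10304823-10305122, DDIT4 chr10:72273674-72273973 and ENO2 chr12:6914330-6914629 (all plus strand). For ANGPTL4, ADM and ENO2 the window lies downstream of the outermost GENCODE 29 start of the gene, at 8363289, 10304680 and 6913745. Of the 17 genes fixed by name, 14 matched a promoter entry.
BNIP3: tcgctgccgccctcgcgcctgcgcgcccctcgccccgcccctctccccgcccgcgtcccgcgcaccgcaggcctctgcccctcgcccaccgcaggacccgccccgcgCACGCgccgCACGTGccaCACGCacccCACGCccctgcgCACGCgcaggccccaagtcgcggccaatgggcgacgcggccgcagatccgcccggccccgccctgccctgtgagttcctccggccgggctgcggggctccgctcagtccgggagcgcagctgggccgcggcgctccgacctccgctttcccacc
ANGPTL4: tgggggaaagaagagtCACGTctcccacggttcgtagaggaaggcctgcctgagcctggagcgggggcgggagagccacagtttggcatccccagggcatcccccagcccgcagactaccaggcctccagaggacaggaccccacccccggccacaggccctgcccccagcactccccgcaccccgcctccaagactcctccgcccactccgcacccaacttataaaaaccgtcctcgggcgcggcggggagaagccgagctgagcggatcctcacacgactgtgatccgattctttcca
ADM: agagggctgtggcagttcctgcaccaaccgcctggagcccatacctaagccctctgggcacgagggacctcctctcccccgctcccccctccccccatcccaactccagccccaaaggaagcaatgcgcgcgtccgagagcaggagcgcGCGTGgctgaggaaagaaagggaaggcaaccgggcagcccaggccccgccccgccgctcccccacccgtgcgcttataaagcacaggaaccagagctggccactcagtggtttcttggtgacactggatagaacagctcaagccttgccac
DDIT4: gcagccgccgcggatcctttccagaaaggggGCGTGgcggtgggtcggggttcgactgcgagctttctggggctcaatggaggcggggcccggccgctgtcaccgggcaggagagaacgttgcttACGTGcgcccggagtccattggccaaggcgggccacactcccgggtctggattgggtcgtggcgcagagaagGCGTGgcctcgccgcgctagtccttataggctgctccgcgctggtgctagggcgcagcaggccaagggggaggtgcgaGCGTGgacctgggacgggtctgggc
ENO2: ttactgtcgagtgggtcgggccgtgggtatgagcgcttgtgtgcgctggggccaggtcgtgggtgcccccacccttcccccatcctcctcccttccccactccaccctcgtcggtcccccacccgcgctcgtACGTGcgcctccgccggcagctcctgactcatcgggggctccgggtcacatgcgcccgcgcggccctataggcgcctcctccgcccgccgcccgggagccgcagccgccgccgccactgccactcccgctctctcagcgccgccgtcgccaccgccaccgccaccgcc
BNIP3 had 6 matches in 5 separate stretches, since its CACGTG matches on both strands. DDIT4, which was not called, had 4 matches, and ANGPTL4, ADM and ENO2 had 1 each. At least 1 match occurred in 48.4% of 27305 promoters of this length, so a match alone does not set these genes apart.

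Of 12 measured HIF subunits, oxygen sensors and coactivators, 6 were called higher and 1 lower (all genes: 17.3% and 21.5%), with a median interaction of 0.62. In the 10 libraries, 6 of 13 were higher and 1 lower at an unadjusted p under 0.05 (median 0.38). The coactivators EP300 (interaction 1.71), CREBBP (1.24), NCOA3 (3.19) and NCOA2 (1.85) were higher, as were ARNT (0.63) and HIF1A. EGLN2, a HIF prolyl hydroxylase, was lower (-1.11), a call that GC and length correction ended (-0.25, edgeR adjusted p = 0.0914). After the correction 7 of the 12 were called higher and 2 lower (all genes: 1460 and 2715 of 12624). The lower ones were EGLN1, another HIF prolyl hydroxylase (-0.67, edgeR adjusted p = 0.0257), and VHL (-0.87, edgeR adjusted p = 0.0439). Before it, EGLN1 (0.40) and VHL (-0.17) were not called. The median response was -0.92 without TEPA and 0.00 with it.

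HIF1A encodes the alpha subunit of HIF-1. It was at 114, 117 and 99.3 CPM in control, 117, 99.1 and 111 CPM in TEPA and 87.6, 96.5 and 126 CPM in TEPA+hypoxia. In hypoxia it was at 56.7, 8.08 and 14.0 CPM. The hypoxia libraries lay below all others, hypoxia 2 and 3 far below hypoxia 1. The interaction was 1.98 ± 0.71 (edgeR adjusted p = 0.0464) and 0.89 ± 0.20 with hypoxia 1 alone (unadjusted p = 0.000663, adjusted p = 0.0654). Leaving out 1 library at a time kept a call for HIF1A in 1 of 12 fits, although the value stayed between 1.56 and 3.29. EPAS1, the HIF-2 alpha subunit, had an interaction of 0.61 (adjusted p = 0.0696). EP300 was at 41.0, 17.1 and 16.8 CPM in hypoxia and 74.1, 71.2 and 106 CPM in TEPA+hypoxia, with no overlap.

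Copper genes held members in both directions. Of 23 measured members, 5 were called higher and 7 lower (median 0.31), shares not far from the 17.3% and 21.5% of all genes, and 4 and 5 passed an unadjusted p under 0.05 with hypoxia 1 alone (median 0.08). The lower group included the copper chaperones ATOX1 (-2.10), which feeds the secretory pathway, and CCS (-1.63), which loads superoxide dismutase. COX17 (-1.46) and SCO2 (-1.63), which serve cytochrome oxidase, SOD1 (-0.93) and COMMD1 (-1.63) were also lower. COX11 (0.02), COX19 (-0.66) and SCO1 (0.03), of the same list, were not called. The higher group included XIAP (2.90), MTF1 (1.01), the metal-sensing transcription factor, STEAP2 (0.95), SP1 (0.89) and LOX (0.75), a copper-dependent collagen crosslinker. SLC31A1, the main copper importer, was at 44.7, 33.9 and 39.7 CPM in hypoxia and 46.0, 44.9 and 48.9 CPM in TEPA+hypoxia, and its interaction was 0.31 in 12 libraries and 0.14 with hypoxia 1 alone, with no call. GC and length correction turned the sign of SLC31A1 (-0.39, adjusted p = 0.0539, and -0.18 in 10 libraries). It also turned the median of the copper list to -0.38, with 3 called higher and 7 lower (all genes: 1460 and 2715 of 12624). The calls of MTF1 (0.19, adjusted p = 0.329), STEAP2 (0.08, adjusted p = 0.824) and LOX ended.

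ATOX1 was at 37.5, 28.3 and 38.1 CPM in control and 38.7, 41.7 and 36.9 CPM in TEPA. In low oxygen it was at 46.0, 169 and 120.0 CPM without TEPA and 30.9, 30.5 and 26.7 CPM with it. Hypoxia 1 was close to the control libraries, and hypoxia 2 and 3 were far above them. The interaction was -2.10 ± 0.48 (edgeR adjusted p = 0.0236), and -0.81 with hypoxia 1 alone (unadjusted p = 0.00111). SOD1, the cytosolic copper and zinc dismutase, had folds of 1.79 without TEPA and 0.942 with it. The SOD1 interaction was -0.93 ± 0.26 (adjusted p = 0.0247), and -0.32 with hypoxia 1 alone (adjusted p = 0.189).

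All 3 measured metallothioneins, small proteins that bind copper and zinc, were called lower (all genes: 21.5%). Their median was -1.63 in 12 libraries and -0.57 with hypoxia 1 alone. After GC and length correction these medians were -1.47 and -0.48. The other 7 members were too low to test. MT2A was at 775, 660.2 and 859.5 CPM in control and 1045, 4055 and 2767 CPM in hypoxia. With TEPA it was at 674, 688 and 613 CPM at normal oxygen and 520.4, 487 and 566 CPM in TEPA+hypoxia. Every hypoxia library was above every other library, and every TEPA+hypoxia library was below every TEPA library. The fold was 3.43 without TEPA and 0.797 with it (interaction -2.11 ± 0.49, edgeR adjusted p = 0.0236). With hypoxia 1 alone the folds were 1.37 and 0.804 (interaction -0.76 ± 0.15, unadjusted p = 0.000182, adjusted p = 0.0643).

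MT1X was at 28.5, 24.5 and 29.5 CPM in control, 40.6, 126 and 98.7 CPM in hypoxia, 19.1, 19.0 and 19.5 CPM in TEPA and 20.7, 19.7 and 19.6 CPM in TEPA+hypoxia. The TEPA and TEPA+hypoxia libraries lay within a narrow band below control, and hypoxia lay above control. The MT1X interaction was -1.63 ± 0.42 (edgeR adjusted p = 0.0236) and that of MT1E was -1.54. Metallothionein genes are near-identical copies of each other, so reads may be split between them and each single value is uncertain. The MT2A promoter is shown because its interaction was the most negative of the measured members, though MT1X and MT1E were called lower as well. Capitals mark the core letters of the metal response element, TGCACNC or TGCGCNC, on either strand (chr16:56608334-56608633, plus strand, GRCh38.p14, RefSeq). The window lies downstream of the outermost GENCODE 29 start of the gene, at 56608199.
MT2A: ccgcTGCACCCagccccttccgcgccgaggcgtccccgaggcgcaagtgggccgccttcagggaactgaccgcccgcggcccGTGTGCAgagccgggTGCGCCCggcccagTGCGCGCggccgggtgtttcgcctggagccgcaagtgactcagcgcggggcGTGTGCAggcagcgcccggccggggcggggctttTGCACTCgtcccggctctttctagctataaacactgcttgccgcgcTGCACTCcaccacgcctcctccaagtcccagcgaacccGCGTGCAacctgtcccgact
MT2A had 8 such matches, and 29.3% of the 27305 promoters had at least 1.

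Iron, antioxidant and sterol genes held members in both directions. Of 22 iron genes, 4 were called higher and 6 lower, shares near those of all genes (17.3% and 21.5%). The ferritin chains FTL (-1.52) and FTH1 (-1.41) were lower, and the transferrin receptor TFRC (0.67) and the iron regulatory protein IREB2 (1.14) were higher. Of 20 NRF2 targets, 2 were called higher and 9 lower, among them TXN (-1.27) and TALDO1 (-1.31), and the cystine transporter SLC7A11 was higher (1.52). The calls of TFRC (0.18) and SLC7A11 (0.30, adjusted p = 0.234) ended with GC and length correction. After it, 1 NRF2 target was called higher and 8 lower (all genes: 1460 and 2715 of 12624). HMOX1, the heme-degrading enzyme, was at 46.1, 44.0 and 33.6 CPM in control and 24.7, 32.5 and 34.5 CPM in hypoxia. With TEPA it was at 24.0, 22.3 and 19.7 CPM and 17.7, 19.3 and 14.6 CPM. The HMOX1 folds were 0.740 and 0.780, an interaction of 0.08. After the correction it was 0.78 (adjusted p = 0.0267). Of 24 cholesterol synthesis genes, 4 were called higher and 6 lower, including MVD (-1.63) and EBP (-1.61), again near the shares of all genes. The median of that list was 0.08, and -0.20 after the correction.

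Ribosomal protein genes and nuclear genes of the respiratory chain had the most uniform direction among the larger lists described. Of 79 cytosolic ribosomal protein genes, 73 were called lower and 1 higher (all genes: 21.5% and 17.3%), with a median interaction of -1.45. Their median response was 1.21 without TEPA and -0.25 with it. In the 10 libraries the median was -0.51 (responses 0.27 and -0.24). RPS9 was at 707, 2343 and 1798 CPM in hypoxia and 488, 489.8 and 362 CPM in TEPA+hypoxia. Of 43 respiratory chain genes, 38 were called lower and 1 higher, beside the same shares of all genes. Their median interaction was -1.38, and -0.59 with hypoxia 1 alone. NDUFA3, a subunit of complex I, was at 23.4, 84.8 and 55.5 CPM in hypoxia and 12.7, 12.2 and 13.1 CPM in TEPA+hypoxia (interaction -2.29). Hypoxia 2 and 3 carried the largest ribosomal shares; the part of library composition in their values was not tested. Ribosomal protein genes have many processed pseudogenes that share reads with them. After GC and length correction the medians were -1.40 and -1.28.

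Of the 13 mitochondrially encoded messenger RNAs, 4 were called higher and 2 lower (all genes: 17.3% and 21.5%), with a median of 0.13 in both sets of libraries. ND4L (1.76), ND5 (1.03), ATP8 (1.16) and ND4 (0.49) were higher, and ND3 (-1.24) and COX2 (-0.62) were lower. GC and length correction could be made for 9 of them and turned the median to -0.27, and to -0.05 in 10 libraries. In the 12 libraries 2 were then called higher and 2 lower (all genes: 1460 and 2715 of 12624). The correction ended the calls of ATP8 (0.54, adjusted p = 0.0879) and ND4 (-0.02, adjusted p = 0.927).

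Glycolysis genes, many of which HIF-1 controls, were called lower in 10 of 23 cases and higher in 2, against 21.5% and 17.3% of all genes, with a median of -0.32 (-0.20 with hypoxia 1 alone). PFKL (-0.94), ALDOA (-1.21), GAPDH (-1.14), TPI1 (-0.97), ENO1 (-1.03) and PKM (-0.76) were lower, and HK2 (1.00) and the lactate transporter SLC16A1 (0.73) were higher. GAPDH was at 8594, 17344 and 15426 CPM in hypoxia and 6674, 6599 and 6122 CPM in TEPA+hypoxia. The GAPDH interaction was -0.44 with hypoxia 1 alone (unadjusted p = 0.00160). HK2, a hexokinase, was at 30.8, 15.5 and 16.6 CPM in hypoxia and 39.8, 42.3 and 50.6 CPM in TEPA+hypoxia. The calls of HK2 (0.44) and SLC16A1 (0.36, adjusted p = 0.0763) ended with GC and length correction.

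Chromatin, splicing and matrix genes had positive medians, and their counts stand against 17.3% called higher and 21.5% lower among all genes. Of 16 Jumonji histone demethylases, which use oxygen and iron, 9 were called higher and 2 lower (median 0.67, and 0.34 with hypoxia 1 alone). KDM5A (0.98), KDM6A (1.39) and the HIF target KDM3A (1.01) were higher, and JMJD6 was lower (-0.92). GC and length correction ended the call of KDM6A (0.49, adjusted p = 0.0772). Of 18 splicing kinases and SR proteins, 5 were called higher and 0 lower in the edgeR test (median 0.34, and 0.17 with hypoxia 1 alone). After GC and length correction 2 of them were called higher and 3 lower (all genes: 1460 and 2715 of 12624). The median was then 0.08, so a single direction did not hold. CLK1, a kinase of splicing factors, was at 58.8, 42.9 and 45.9 CPM in hypoxia and 76.2, 80.5 and 86.2 CPM in TEPA+hypoxia, against 40.9, 38.4 and 29.7 CPM in control and 28.5, 30.7 and 36.1 CPM in TEPA. Its interaction was 0.91 ± 0.22 (adjusted p = 0.0236), and GC and length correction ended the call (0.29, adjusted p = 0.133). Of 31 extracellular matrix genes, 11 were called higher and 3 lower (median 0.39). FN1, fibronectin, was at 446, 188 and 236 CPM in hypoxia and 678, 718 and 854 CPM in TEPA+hypoxia (interaction 1.39), and TIMP1, an inhibitor of matrix proteases, was lower (-1.69).

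Angiogenesis genes held members in both directions. Of 24 members, 6 were called higher and 4 lower (median 0.06), shares near those of all genes (17.3% and 21.5%). The ligands VEGFB (-1.55), PGF (-1.43) and ADM were lower, and the receptors KDR (1.22), FLT1 (0.81), NRP1 (0.73) and NRP2 (0.60) and the Notch pair JAG1 (1.01) and NOTCH1 (0.63) were higher. The receptor EPHB4 was lower (-0.46), and the ligand VEGFA had a positive value with no call (0.63). GC and length correction ended the calls of ADM, KDR (0.28, adjusted p = 0.328), FLT1 (0.30, adjusted p = 0.247), NRP1 (0.06, adjusted p = 0.730) and EPHB4 (0.17, adjusted p = 0.346). PGF was at 104, 224 and 204 CPM in hypoxia and 72.6, 74.1 and 58.9 CPM in TEPA+hypoxia. KDR, the main VEGF receptor, was at 5.24, 2.87 and 4.37 CPM and 9.20, 8.60 and 10.1 CPM in the same groups, with no overlap.

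Stress genes were mixed. Of 23 immediate early genes, 3 were called higher and 7 lower, of 18 heat shock genes 2 and 6, and of 17 integrated stress response genes 4 and 3 (all genes: 17.3% and 21.5%). After GC and length correction these counts were 2 and 3, 0 and 6, and 4 and 1 (all genes: 1460 and 2715 of 12624). The medians then turned from -0.07 to 0.10, from 0.04 to -0.33 and from -0.29 to 0.14. With hypoxia 1 alone and no correction they were -0.14, -0.06 and 0.04. IER3 (-0.88), JUND (-1.29) and KLF2 (-1.10) were lower, as were HSPB1 (-1.99) and HSPE1 (-1.40). EGR1 was called higher (1.97), but every library held it at 0.194 to 1.34 CPM. The correction ended the calls of JUND (-0.27, adjusted p = 0.0982), KLF2 (-0.21, adjusted p = 0.250) and EGR1 (1.84, adjusted p = 0.0595). Of 29 DNA replication and mitosis genes, 10 were called higher and 6 lower (median 0.23). After the correction 6 were higher and 9 lower (median -0.05). CENPE (1.68) and CENPF (2.91), which are long genes of the kinetochore, were higher. MCM7 (-1.71) and CDT1 (-1.23), which license replication origins, were lower. Other members of the list differed: MCM4 (0.55) was called higher, and MCM2, MCM3, MCM6 and CDC6 were not called. MCM5 (-0.62) and the mitosis genes AURKB (-0.98) and CCNB2 (-0.40) were called lower. The calls of CDT1 (-0.27, adjusted p = 0.112) and MCM5 (-0.05, adjusted p = 0.645) ended with the correction.

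**Figure D3:**
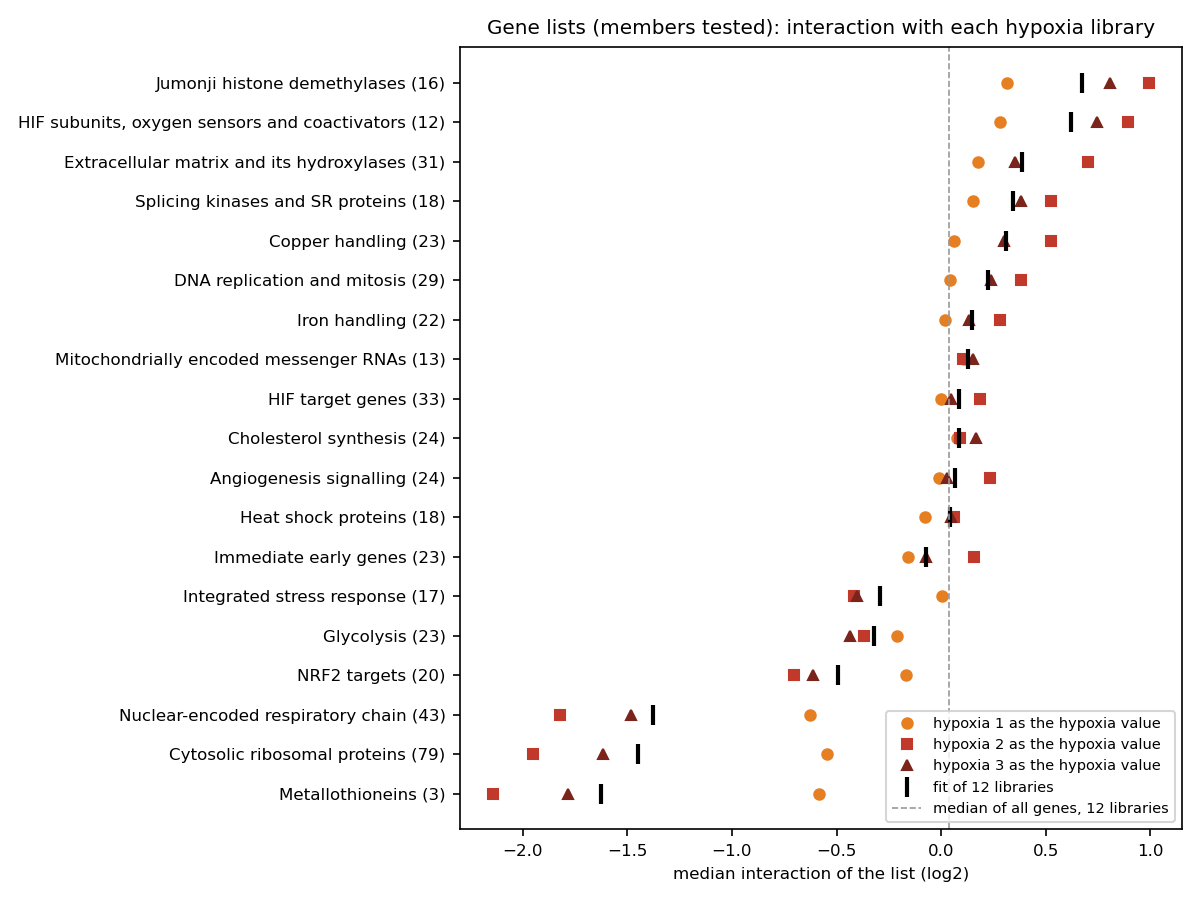
Median interaction (log2) of each gene list, with the number of members tested, for each hypoxia library taken alone (circle, square, triangle) and for the fit of 12 libraries (bar). Ribosomal protein genes lie at -0.55 with hypoxia 1 and at -1.95 and -1.62 with hypoxia 2 and 3, while HIF target genes lie at 0.18 with hypoxia 2 and at 0.05 with hypoxia 3.

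The most extreme called genes with a mean of at least 5 CPM had low levels in hypoxia 2 and 3 on the higher side and high levels there on the lower side. The 8 highest were CRYBG3 (3.62), ZBED6 (3.31), MBNL1 (3.24), WWC2 (3.22), MIB1 (3.20), NCOA3 (3.19), HACD2 (3.08) and MERTK (3.07). MBNL1, a regulator of splicing, was at 2.78, 0.294 and 0.624 CPM in hypoxia and 7.11, 8.21 and 21.6 CPM in TEPA+hypoxia. MERTK, a receptor kinase, was at 2.98, 0.514 and 0.267 CPM and 6.70, 7.12 and 11.6 CPM in the same groups. Hypoxia lay below TEPA+hypoxia in all libraries of both genes, and hypoxia 1 lay nearest.

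The 8 lowest were ROMO1 (-2.91), EEF1A1P13 (-2.75), TYMP (-2.75), PFN1P1 (-2.75), SLMO2-ATP5E (-2.65), RPSAP19 (-2.62), CCDC85B (-2.60) and SNHG19 (-2.57). EEF1A1P13, PFN1P1 and RPSAP19 are processed pseudogenes and SLMO2-ATP5E is a read-through of neighbouring genes, so they share reads with other genes and are uncertain. ROMO1, a small protein of the mitochondrial inner membrane, was at 26.4, 21.6 and 34.5 CPM in control and 46.3, 197 and 131 CPM in hypoxia. With TEPA it was at 36.4, 31.9 and 28.7 CPM at normal oxygen and 20.7, 21.1 and 16.8 CPM in TEPA+hypoxia. The ROMO1 interaction was -1.47 with hypoxia 1 alone (unadjusted p = 5.49e-05, adjusted p = 0.0643).

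For a called gene whose 3 hypoxia libraries lie within 0.2 on the log2 scale, the interactions from each hypoxia library alone also lie within 0.2 of each other, by construction. Where the interaction is small this is a large part of it: that of MTA2 was -0.21 with hypoxia 1 and -0.40 with hypoxia 2. There were 119 such genes among the 5611 called (2.12%), 66 higher and 53 lower, against 8.50% of all genes tested. They were singled out after their values were seen. CNNM1, of a family linked to magnesium transport, was at 8.86, 8.96 and 9.18 CPM in hypoxia and 14.3, 16.1 and 18.0 CPM in TEPA+hypoxia (interaction 0.79, and 0.82 with hypoxia 1 alone). DYNC1H1, the heavy chain of cytoplasmic dynein, had interactions of 0.71 and 0.67, PCM1, a protein of centriolar satellites, 0.70 and 0.67, and POLR2A, the largest subunit of RNA polymerase II, 0.58 and 0.54. HSPG2, the basement membrane proteoglycan perlecan, had 0.65 and 0.55.

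On the lower side, OSTF1 was at 31.6, 33.6 and 33.3 CPM in hypoxia and 24.3, 23.9 and 22.6 CPM in TEPA+hypoxia (interaction -0.70, and -0.63 with hypoxia 1 alone). CCND3, a G1 cyclin, had -0.55 and -0.47, CDKN2C, an inhibitor of its kinases, -0.61 and -0.51, and PLIN3, a lipid droplet protein, -0.47 and -0.43. The hypoxia and TEPA+hypoxia libraries of OSTF1 did not overlap. Of the 119 genes, 109 could be corrected for GC content and length, and 42 of these were called again with the same sign while 28 had the other sign. Among those named, OSTF1, CDKN2C, DYNC1H1, POLR2A and HSPG2 were called again, and CNNM1 (0.42, adjusted p = 0.0689), PCM1 (0.15), MTA2 (-0.18), PLIN3 (-0.04) and CCND3 (0.03) were not.

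The interaction followed transcript composition across genes. Genes were split into 5 equal groups by GC content. In the group with the lowest GC content the median interaction was 0.70, with 36.0% called higher and 4.08% lower. In the group with the highest GC content it was -0.75, with 2.26% higher and 49.7% lower. With hypoxia 1 as the hypoxia value the medians were 0.29 and -0.31, with hypoxia 2 they were 0.94 and -0.97, and with hypoxia 3 they were 0.89 and -0.89. Spearman's rho with GC content was -0.53 over 12624 genes and -0.43 over 13060 genes with hypoxia 1 alone, a description across genes that share libraries. After per-library correction for GC content and length, 1460 genes were called higher and 2715 lower. Of the 5156 called genes in that fit, 2945 were called again, 2936 with the same sign. VEGFA (1.05, adjusted p = 0.0467) and EPAS1 (1.03, adjusted p = 0.0435) were called after the correction.

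**Figure D4:**
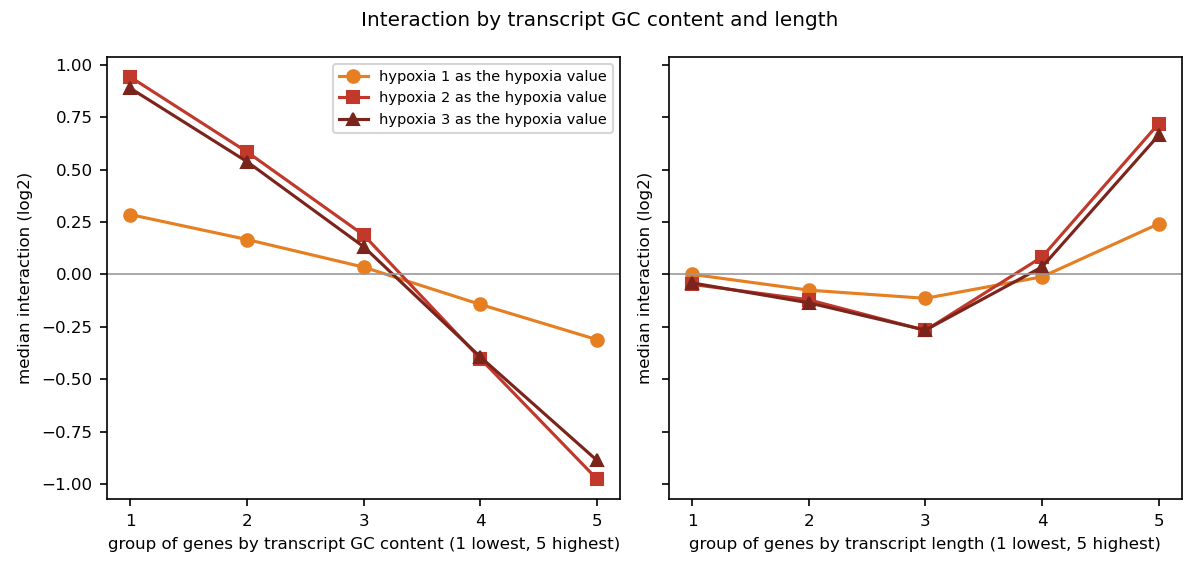
Median interaction (log2) in 5 equal groups of genes ordered by transcript GC content (left) and length (right), with each hypoxia library as the hypoxia value. From the lowest to the highest GC group the median goes from 0.29 to -0.31 with hypoxia 1 and from 0.94 to -0.97 with hypoxia 2.

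The number of called genes rested on single libraries in every group. Without control 1, control 2, hypoxia 3, TEPA 2 or TEPA+hypoxia 3 the edgeR test called 0 genes in either direction, with 6599, 6271, 6176, 6416 and 6178 genes at an unadjusted p under 0.05. Without hypoxia 1 it called 5261 higher and 4497 lower. Values of BNIP3 stayed between -0.48 and -0.41 when each library was left out, and those of ANGPTL4 between -1.62 and -1.17. In the 10 libraries, leaving out control 3 gave 1491 higher and 1084 lower, and leaving out TEPA+hypoxia 3 gave 104 and 141.

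**Figure D5:**
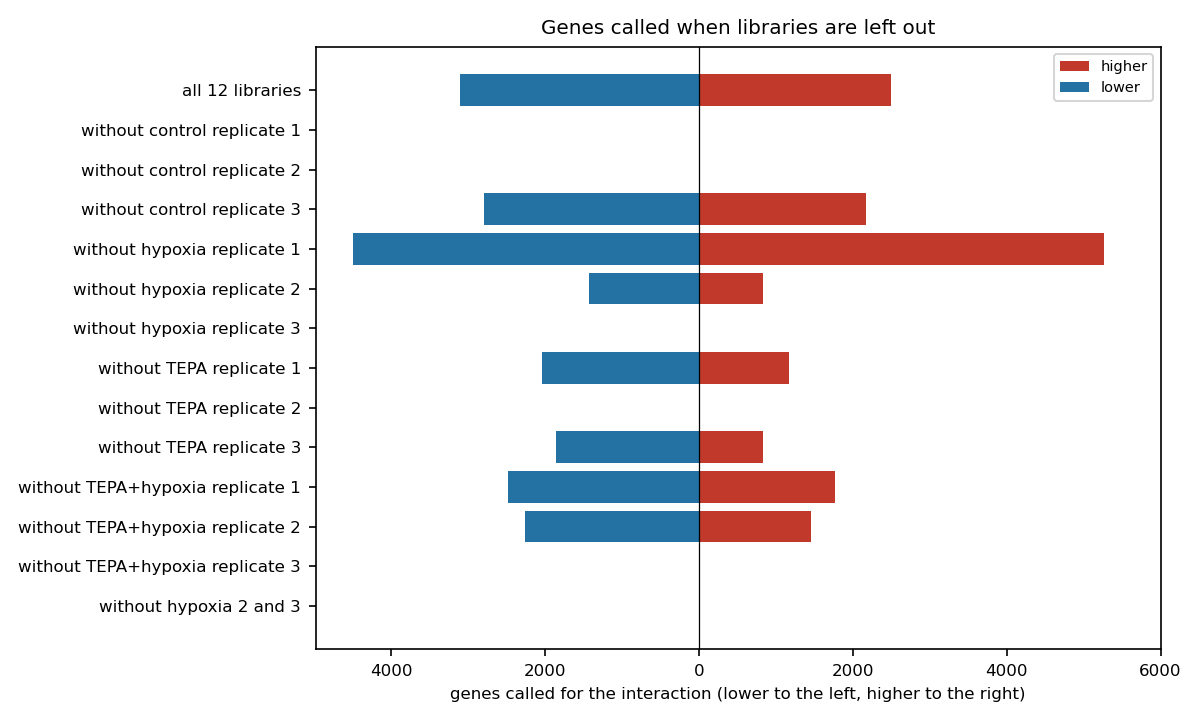
Number of genes called for the interaction in all 12 libraries and with libraries left out (lower to the left, higher to the right; edgeR, adjusted p under 0.05). The counts are 2498 and 3113 with all libraries, 5261 and 4497 without hypoxia 1, and 0 and 0 in the fits with no bar.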

How the data were processed

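Poly(A) RNA of 12 EA.hy926 libraries was sequenced with a directional kit, per the labels. The deposited table holds whole-number read counts for 51141 gene symbols, made by the authors with HISAT2 2.1.0 on GRCh38 and with DESeq among their tools, per the submitters' processing notes. How reads were counted, with which annotation and strand setting, is not given in the sources used here, so overlapping and antisense genes cannot be told apart. Some genes used by all cells, such as HK1 (0 counts), were at or near 0, so a gene at 0 was not read as silent.

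Counts were filtered with filterByExpr, scaled by TMM and fitted with 1 mean per group in edgeR 4.0.16 (R 4.3.3), with the two-sided quasi-likelihood F-test and Benjamini-Hochberg adjustment over all genes. The SE is the log2 value over the root of F. A value with 1 hypoxia library in a plot comes from log2 CPM with a prior count of 2. A floor of 3 counts lay at 0.118 to 0.267 CPM. Alternatives used limma 3.58.1 and DESeq2 1.42.0, other scalings and filters, left-out libraries, a block, and spline correction (4 df) for GC content and length from GENCODE 29. The scripts were tested on simulated data.

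Named genes were the 8 highest and 8 lowest called with at least 5 CPM, 17 fixed genes and, per list, the 3 members of smallest p at most; others named among list members or as close hypoxia libraries were chosen after their values were seen. Members and lists were chosen with earlier results of these data known.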

Additional observations from a re-analysis of the deposited data

Results flagged for a closer look

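Each of these results was set aside because the responses to low oxygen with and without TEPA differed by the edgeR test of that difference in 12 libraries. Over all genes, 2498 were higher and 3113 lower. Of the genes fixed by name, ANGPTL4 (-1.37), BNIP3 (-0.46), ADM (-0.69), MT2A (-2.11), MT1X (-1.63), SOD1 (-0.93) and ATOX1 (-2.10) were lower, and HIF1A (1.98) was higher. With hypoxia 1 as the only hypoxia library none of the 8 genes passed the adjusted threshold in the edgeR test, and the value of BNIP3 was -0.44.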

How the results depend on the processing

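In 12 libraries, RLE scaling, upper quartile scaling, a 1 CPM filter, no filter, DESeq2 and limma-voom kept both counts within 1.5 times the reported ones. Library totals alone gave 1809 lower genes, with 56.2% of called genes higher against 44.5%, and moved the median of all genes from 0.04 to 0.32. Quality weights gave 5549 higher and 5111 lower, with a weight of 0.0595 for hypoxia 1. GC and length correction gave 1460 higher. Hypoxia 2 as the only hypoxia library gave 5173 higher, hypoxia 3 gave 4806, and hypoxia 1 alone gave 0 and 0. Leaving out each library in turn gave 0 to 5261 higher and 0 to 4497 lower. In 10 libraries, no filter gave 1339 higher and 978 lower, DESeq2 747 and 621, quality weights 1295 and 1263, and GC and length correction 4 lower; leaving out each library gave 0 to 1491 higher and 0 to 1084 lower. Without hypoxia 1 no hypoxia library remains there, so that fit was not run. The cause of these shifts was not tested. DDIT4 changed sign to 0.74 (adjusted p = 0.0407) with GC and length correction.

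Replicate numbers did not pair the samples: of 18 same-number pairs, 6 had a correlation of deviations over 0.1 (-0.36 to 0.32), and 0 of 12 libraries correlated best with their own number in every other group, while 6 did so in some. With the replicate number as a block, 2020 genes were higher and 2522 lower in 12 libraries, and 0 and 0 in 10. The block together with GC and length correction gave 1110 higher and 2032 lower, and 0 and 0 in 10. Over 91 named genes, 1771 alternative values kept direction and call, 532 lost the call and 32 gained one. Another 28, in 8 genes, changed sign, 27 of them with no call on either side: DDIT4, ENO2, SLC2A1, PFKFB4, SLC31A1, HMOX1, TAGLN and LYZ. Of the medians of 23 lists, 464 alternative values moved less than the replicate spread and 65 more, and 39 changed sign, in 10 lists, 8 of them with GC and length correction.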
